A study of Sorghum bicolor with 18 samples.

Results

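Dehydrins and late embryogenesis abundant (LEA) proteins were followed in buds of the first leaf axil of cultivar 100M of sorghum (Sorghum bicolor) after removal of the leaf that covers the bud. The genes were all those whose title in the deposited annotation contains the word dehydrin or the words late embryogenesis abundant, which gave 81 of the 34211 genes in the table. Of these, 34 have titles without the word hydroxyproline-rich and are called dehydrins and LEA proteins here, by title alone. The word dehydrin stands in the titles of 4 of the 34. The other 47 are titled LEA hydroxyproline-rich glycoproteins and are described apart. Titles are those of the Arabidopsis gene matched to each sorghum gene in the table, and several sorghum genes can share a match: the 34 genes match 18 Arabidopsis loci and the 47 match 20. Positions and sequences of these genes are not used here, and the genome build is not given in the sources used here.

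In intact plants the coleoptile and the leaves stayed in place. In leaf-removed plants the coleoptile and the first leaf were peeled off the culm 7 days after sowing, which left the bud in the axil of the first leaf exposed. All plants were of the same cultivar, and the buds of both kinds of plant were collected at 1, 3 and 6 h, giving 6 groups of 3 libraries. A library holds 15 pooled buds, and per the labels the 3 pools with the best RNA of 4 harvested were sequenced, so the spread between libraries is that between selected pools.

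Dehydrins and most other LEA proteins are hydrophilic proteins with little fixed structure when in solution. They build up in seeds as these dry, and in leaves and other tissues under drought, cold or abscisic acid, and they are thought to protect membranes and enzymes when water is scarce. Proteins of the LEA14 type differ in having a folded domain. The hydroxyproline-rich glycoproteins share only a domain of the LEA14 type and include membrane proteins related to the Arabidopsis defence genes NDR1 and NHL10, the latter induced by pathogens and in ageing leaves.

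Depth was 21.4 to 45.8 M exon reads per library (M, 1000000 reads), with a median of 28.7 M. The test covered 21852 genes with enough reads, among them 23 of the 34 dehydrins and LEA proteins and 24 of the 47 glycoproteins. Of the genes not tested, 3 and 4 had 0 reads in all 18 libraries. Values called CPM are exon reads per 1000000 after TMM scaling of the libraries, and a level compared between genes is given as the authors' RPKM, which is per length. Changes are given on the log2 scale as leaf-removed relative to intact buds ± their standard error, with 3 libraries against 3, and a gene was called at a Benjamini-Hochberg adjusted p under 0.05 in the edgeR quasi-likelihood test. Within 5 of the 6 groups, 1 library deviated from its group in a similar way, namely replicate c of intact buds at 1 h, replicate d of intact buds at 6 h, replicate d of leaf-removed buds at 1 h, replicate b of leaf-removed buds at 3 h and replicate d of leaf-removed buds at 6 h. Of the 23 tested genes, 4 (Sobic.001G017100, Sobic.003G117000, Sobic.005G211200 and Sobic.008G127500) had their lowest value in that library in all 5 groups, as had 8 of the 24 tested glycoproteins. Each of these 5 libraries also had the highest share of gene reads in introns within its group, at 4.65% to 7.23%. Leaving them out and using the intron share as a covariate are therefore not independent checks. Values without these 5 libraries are given where they change a call at 1 of the 3 times. In bulk tissue, fewer cells of a type and less RNA per cell cannot be told apart.

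At 1 h after leaf removal, 15 of the 23 tested dehydrins and LEA proteins were higher and 0 were lower. Over all tested genes 48.9% were called, 24.8% as higher and 24.1% as lower. Without adjustment for multiple tests 0 of the 23 had a p under 0.05 in the lower direction, and DESeq2 called 0 lower. At 3 h, 6 were higher and 3 lower, against 17.8% and 16.2% of all tested genes, and at 6 h, 2 were higher and 3 lower, against 18% and 15.9%. All 3 leaf-removed libraries lay above the 3 intact ones at 1 h in 16 of the 23, against 28.3% of all tested genes. At 3 h this held for 8 and at 6 h for 4, against 23.5% at each. The reverse, all leaf-removed libraries below, held for 0, 1 and 5 at 1, 3 and 6 h, against 26.7%, 23.9% and 22.6%. Each gene's own level decided whether it could be tested: 14 of the 23 had enough reads in intact buds alone, and 9 passed only through the leaf-removed libraries and so had to be higher somewhere. Among the 14, 6 were called at 1 h, all of them higher. At 3 h 3 of them were higher and 3 lower, and at 6 h 1 was higher and 2 were lower. All 9 others were higher at 1 h. The counts of groups that lay apart were not split in this way and include such genes, which lend those counts no support. The median change of the 23 was 2.60 at 1 h, 0.41 at 3 h and 0.11 at 6 h, against -0.01, 0.00 and -0.03 over all tested genes. With genes of 0 reads in a group set to their lower bound, and genes of at most 3 reads in both groups left out, the medians were 2.60, 0.51 and 0.10. Both sets of medians include the 9 genes that had to be higher somewhere, so their distance from all tested genes is no support. The 1 h median of 2.60 is itself the value of 1 of the 9, Sobic.009G215700.

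**Figure D1:**
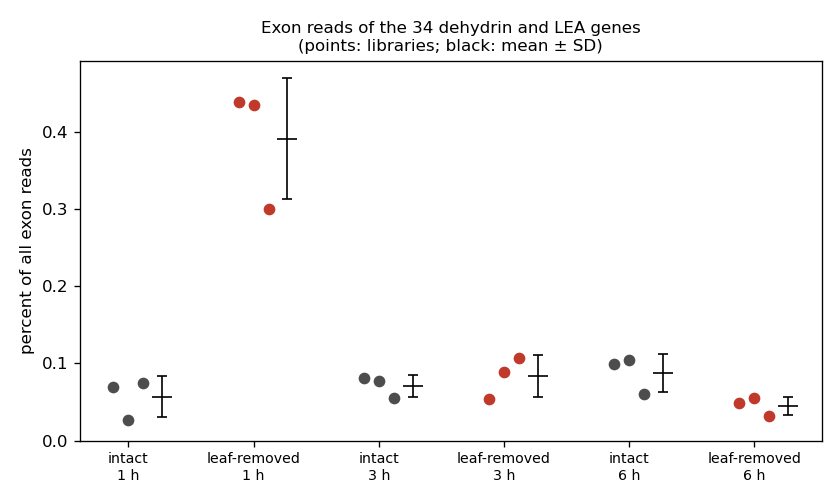
The share of all exon reads that fell on the 34 dehydrins and LEA proteins, in percent, for each of the 18 libraries, by time and treatment. The leaf-removed libraries at 1 h, from 0.30% to 0.439%, lie above all others.

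Together the 34 genes took 0.0571% ± 0.0268 (SD, n = 3) of exon reads in intact buds and 0.391% ± 0.0786 in leaf-removed buds at 1 h. The 3 leaf-removed libraries at 1 h all lay above every other library. At 3 h the shares were 0.0711% ± 0.0142 and 0.0834% ± 0.0271, and at 6 h 0.0879% ± 0.0242 and 0.0452% ± 0.0117, with the leaf-removed group the lower one at 6 h. A few genes made up most of these reads: Sobic.001G149500 held 41.5% of the reads of the set over all libraries, Sobic.003G117000 held 24.6%, Sobic.001G017100 held 17.4% and Sobic.009G247900 held 6.66%. The lower share at 6 h does not describe each gene. At 6 h Sobic.003G117000 was at a mean of 591 RPKM in intact and 107 RPKM in leaf-removed buds. Sobic.001G149500 went the other way, at 51.7 and 208 RPKM. Of the 23 tested genes, 2 were called higher and 3 lower at 6 h.

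The most abundant dehydrin was Sobic.001G149500, titled dehydrin family protein and matched to AT1G54410. Its level in intact buds at 1 h was 47.9, 53.7 and 76.5 CPM, and in leaf-removed buds it was 2986, 3242 and 2166 CPM. At 3 h the values were 57.0, 39.2 and 37.9 CPM in intact and 249, 287 and 329.5 CPM in leaf-removed buds. At 6 h they were 32.8, 41.6 and 33.5 CPM and 163, 195 and 137 CPM. Leaf-removed libraries lay above intact ones at every time, and the leaf-removed groups themselves did not overlap, with 1 h highest and 6 h lowest. The change was 5.56 ± 0.26 (adjusted p = 3.3e-10) at 1 h, a 47.1-fold difference, 2.69 ± 0.22 (adjusted p = 3.4e-07) at 3 h and 2.20 ± 0.22 (adjusted p = 2.9e-06) at 6 h. Per length, its mean RPKM in leaf-removed buds at 1 h was 3345 ± 548, the rank 5 among all 34211 genes, against 82.7 ± 21.6 and rank 1093 in intact buds. The leaf-removed level at 3 h and 6 h was 10.3% and 5.91% of that at 1 h, and the effect was smaller at both later times than at 1 h (by -2.87 and -3.36 on the log2 scale, adjusted p = 6.1e-06 and 8.2e-07, edgeR interaction contrasts).

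**Figure D2:**
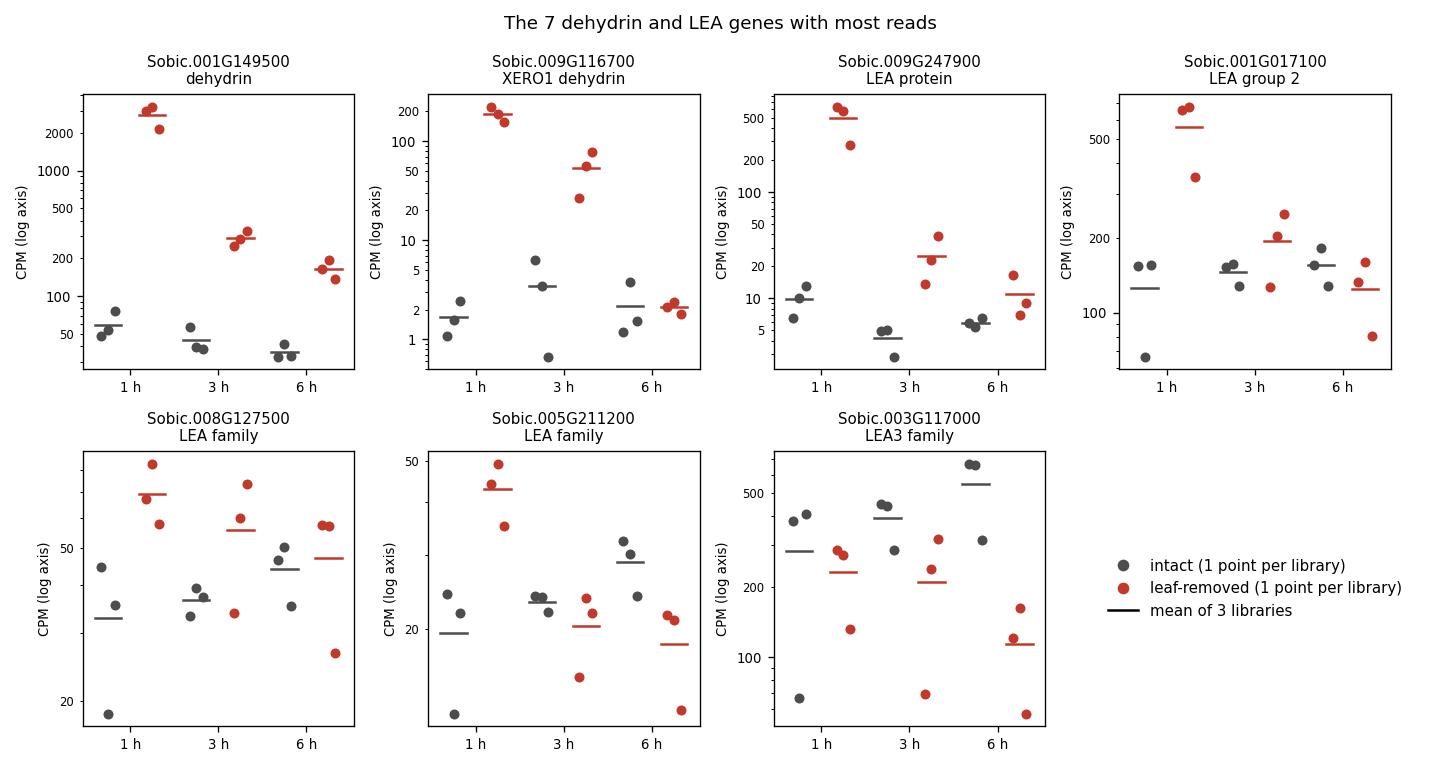
CPM (log axis) of the more abundant dehydrins and LEA proteins in each of the 18 libraries, by time and treatment, with 1 point per library. In the panel of the dehydrin Sobic.001G149500 the leaf-removed libraries lie above the intact ones at all 3 times, and in that of the LEA3-family gene Sobic.003G117000 they lie below at 6 h.

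A further 3 genes are matched to AT3G50980, the Arabidopsis dehydrin XERO1. Sobic.009G116700 was at 1.09, 1.57 and 2.42 CPM in intact buds at 1 h and at 224, 188 and 155 CPM in leaf-removed buds. At 3 h it was at 6.30, 3.49 and 0.667 CPM and 26.9, 56.1 and 78.1 CPM, and at 6 h at 1.19, 3.80 and 1.54 CPM and 2.12, 2.39 and 1.81 CPM. The groups were far apart at 1 h, apart at 3 h and overlapping at 6 h. The change was 6.80 ± 0.67 (adjusted p = 6e-07) at 1 h and 3.96 ± 0.59 (adjusted p = 8.6e-05) at 3 h, and at 6 h it was -0.04 ± 0.61 (adjusted p = 0.97), which does not show that the groups were alike. It was the one gene of the 23 whose effect also differed between 3 h and 6 h, by -4.0 ± 0.83 (adjusted p = 0.012), where 0.902% of all tested genes shifted down. That call was lost without replicate c of intact buds at 6 h, and without the 5 libraries 6 genes shifted down between 3 h and 6 h.

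Sobic.010G041900, also matched to XERO1, had 0 reads in all 9 intact libraries. In leaf-removed buds it had 77, 29 and 86 reads at 1 h, 2, 33 and 22 reads at 3 h and 0, 2 and 0 reads at 6 h. All 3 libraries of the earlier times thus held reads, and 1 library of 6 h did. With 3 reads per group as the floor, it was at least 87.8-fold higher at 1 h (adjusted p = 0.00051) and at least 19.9-fold higher at 3 h (adjusted p = 0.0056). The third of these genes, Sobic.003G270200, was not tested, with 25 reads over the 9 intact and 55 over the 9 leaf-removed libraries. Of the genes titled dehydrin, the 3 that could be tested were all higher at 1 h and at 3 h, against 24.8% and 17.8% of all tested genes. Among the 3, Sobic.010G041900 passed the filter only through its leaf-removed libraries, so its higher calls are no count in support. Sobic.001G149500 alone was called at 6 h.

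The LEA proteins titled group 2 or matched to AT2G46140 or AT1G01470 (LEA14) belong to the LEA14 type, and 3 of their 5 genes were tested. Sobic.009G247900, matched to AT2G46140, was at 6.54, 10.1 and 13.1 CPM in intact and 639, 586 and 276 CPM in leaf-removed buds at 1 h. At 3 h it was at 4.91, 5.06 and 2.81 CPM and 13.6, 22.9 and 38.8 CPM, and at 6 h at 5.83, 5.41 and 6.48 CPM and 16.6, 7.00 and 9.02 CPM. Leaf-removed libraries lay above intact ones at all 3 times. The change was 5.66 ± 0.47 (adjusted p = 1.2e-07) at 1 h, 2.56 ± 0.43 (adjusted p = 0.00027) at 3 h and 0.88 ± 0.42 (adjusted p = 0.12) at 6 h. Per length it reached 493 ± 183 RPKM in leaf-removed buds at 1 h, rank 134, from 11.4 ± 3.84 RPKM in intact buds. Without the 5 libraries named above the 6 h value was 1.05 (adjusted p = 0.047).

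Sobic.001G017100, a group 2 LEA gene matched to AT2G44060, was already abundant in intact buds. It was at 154, 66.4 and 155 CPM in intact and 656, 679 and 352 CPM in leaf-removed buds at 1 h. At 3 h it was at 153, 157 and 128 CPM and 127, 204 and 250.5 CPM, and at 6 h at 156, 182 and 128 CPM and 133, 161 and 80.9 CPM. The groups were apart at 1 h and overlapped at 3 h and 6 h. The change was 2.17 ± 0.35 (adjusted p = 8.9e-05) at 1 h, 0.41 ± 0.34 (adjusted p = 0.38) at 3 h and -0.31 ± 0.34 (adjusted p = 0.5) at 6 h, and without the 5 libraries the 3 h value was 0.64 (adjusted p = 0.00062). The second gene matched to AT2G44060, Sobic.002G103900, had few reads: 11, 23 and 19 in intact and 1, 6 and 5 in leaf-removed buds at 6 h, groups that did not overlap. Its change was 1.19 ± 0.53 (adjusted p = 0.072) at 1 h, -0.08 ± 0.54 (adjusted p = 0.93) at 3 h and -2.20 ± 0.59 (adjusted p = 0.009) at 6 h.

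**Figure D3:**
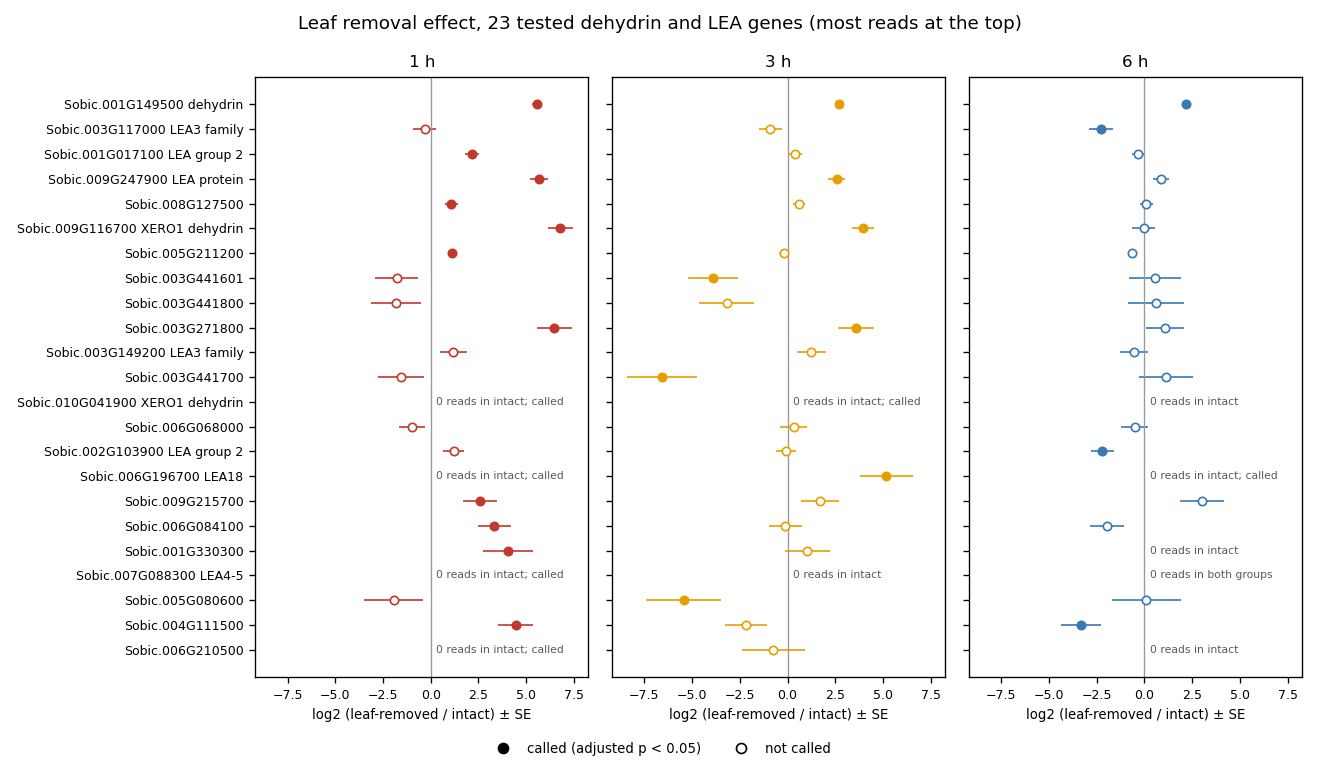
Log2 change of leaf-removed over intact buds at 1, 3 and 6 h for the 23 tested dehydrins and LEA proteins, with bars of 1 standard error and filled points for called values. Genes with 0 reads in the intact group have no fitted point and are marked in words; the points at 1 h lie mostly right of 0, and those at 6 h on both sides.

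Genes titled LEA family or LEA domain, of the kind made in drying Arabidopsis seeds, were scarce in intact buds, apart from a pair matched to AT3G62580 that is described further on. Of 6, 5 could be tested, each of them only through its leaf-removed libraries, so that their higher calls at 1 h are no count in support. Sobic.003G271800, matched to AT3G15670, had 0, 1 and 3 reads in intact buds at 1 h against 65, 127 and 85 in leaf-removed ones, and 0, 4 and 0 against 13, 17 and 20 at 3 h. The groups were apart at both times, with a change of 6.48 ± 0.93 (adjusted p = 3.1e-05) at 1 h and 3.58 ± 0.94 (adjusted p = 0.0081) at 3 h. At 6 h its reads were 0, 2 and 4 and 2, 8 and 4, overlapping, with 1.07 ± 0.99 (adjusted p = 0.43). Sobic.009G215700, matched to the same Arabidopsis gene, had 7, 0 and 14 and 64, 23 and 9 reads at 1 h. These groups overlapped, the change was 2.60 ± 0.89 (adjusted p = 0.024), and the call was lost with the 6 libraries of 1 h alone (adjusted p = 0.08) and without replicate b or c of intact or replicate b of leaf-removed buds at 1 h (adjusted p = 0.058 to 0.19). Its later changes were 1.70 ± 1.01 (adjusted p = 0.21) at 3 h and 3.02 ± 1.18 (adjusted p = 0.058) at 6 h, the latter from 3 reads in intact and 31 in leaf-removed buds. Without the 5 libraries the 6 h value was 3.76 (adjusted p = 0.021), and the 3 h value, 1.98 (adjusted p = 0.05), was just past the threshold.

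Sobic.006G084100, matched to AT1G72100, had 7, 0 and 1 reads in intact and 27, 23 and 12 in leaf-removed buds at 1 h. Those groups were apart, with a change of 3.34 ± 0.87 (adjusted p = 0.0046), and the later values were -0.11 ± 0.86 (adjusted p = 0.94) at 3 h and -1.95 ± 0.90 (adjusted p = 0.11) at 6 h. Sobic.006G210500, matched to AT5G44310, had 0 reads in intact buds at 1 h and 20, 24 and 12 in leaf-removed buds, which is at least 25.6-fold higher (adjusted p = 0.00066). Of all its reads 62.3% were unique, so some may belong to a similar gene; at 3 h and 6 h no library had more than 2 reads. Sobic.004G111500, matched to AT3G53040, was higher at 1 h and lower at 6 h. It had 0, 0 and 3 reads in intact and 22, 16 and 16 in leaf-removed buds at 1 h, a ratio of 24.7 with a 95% exact counting interval of 8.01 to 123.5 and a fitted change of 4.44 ± 0.94 (adjusted p = 0.00095). At 6 h it had 5, 6 and 10 and 0, 2 and 0 reads and a change of -3.33 ± 1.05 (adjusted p = 0.023), and that call was lost without the 5 libraries (adjusted p = 0.076) and without replicate d of intact or replicate a or d of leaf-removed buds at 6 h (adjusted p = 0.062 to 0.08). The 3 h value was -2.18 ± 1.12 (adjusted p = 0.15), and the effects at 1 h and 6 h differed by -7.77 ± 1.40 (adjusted p = 0.00042). The untested gene of this kind, Sobic.001G492000, had 21 reads over the intact and 31 over the leaf-removed libraries.

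A pair of genes titled LEA group 1 or LEA4-5, whose Arabidopsis counterparts LEA18 and LEA4-5 respond to water deficit, was read almost solely after leaf removal. Sobic.006G196700, matched to LEA18, had 1 read in the 9 intact libraries together. In leaf-removed buds it had 63, 24 and 50 reads at 1 h, 2, 18 and 26 reads at 3 h and 4, 16 and 0 reads at 6 h. It was at least 62.7-fold higher at 1 h (adjusted p = 0.0006) and at least 6.11-fold higher at 6 h (adjusted p = 0.041), and at 3 h the ratio was 48.3 with a counting interval of 8.24 to 1948 (adjusted p = 0.013). The call at 6 h was lost in 10 of the alternatives, among them each intact library of 6 h left out (adjusted p = 0.082 to 0.089) and replicate a or b of leaf-removed buds at 6 h left out (0.058 to 0.16). The call at 3 h was lost without replicate c of intact buds at 3 h (adjusted p = 0.056). Sobic.007G088300, matched to LEA4-5, had 0 reads in all 9 intact libraries and 58, 22 and 34 reads in leaf-removed buds at 1 h. It was at least 52.1-fold higher there (adjusted p = 0.00022), had 3, 1 and 1 reads at 3 h (adjusted p = 0.064) and had 0 reads at 6 h. The other 3 genes of this kind were not tested, with at most 2 reads each.

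**Figure D4:**
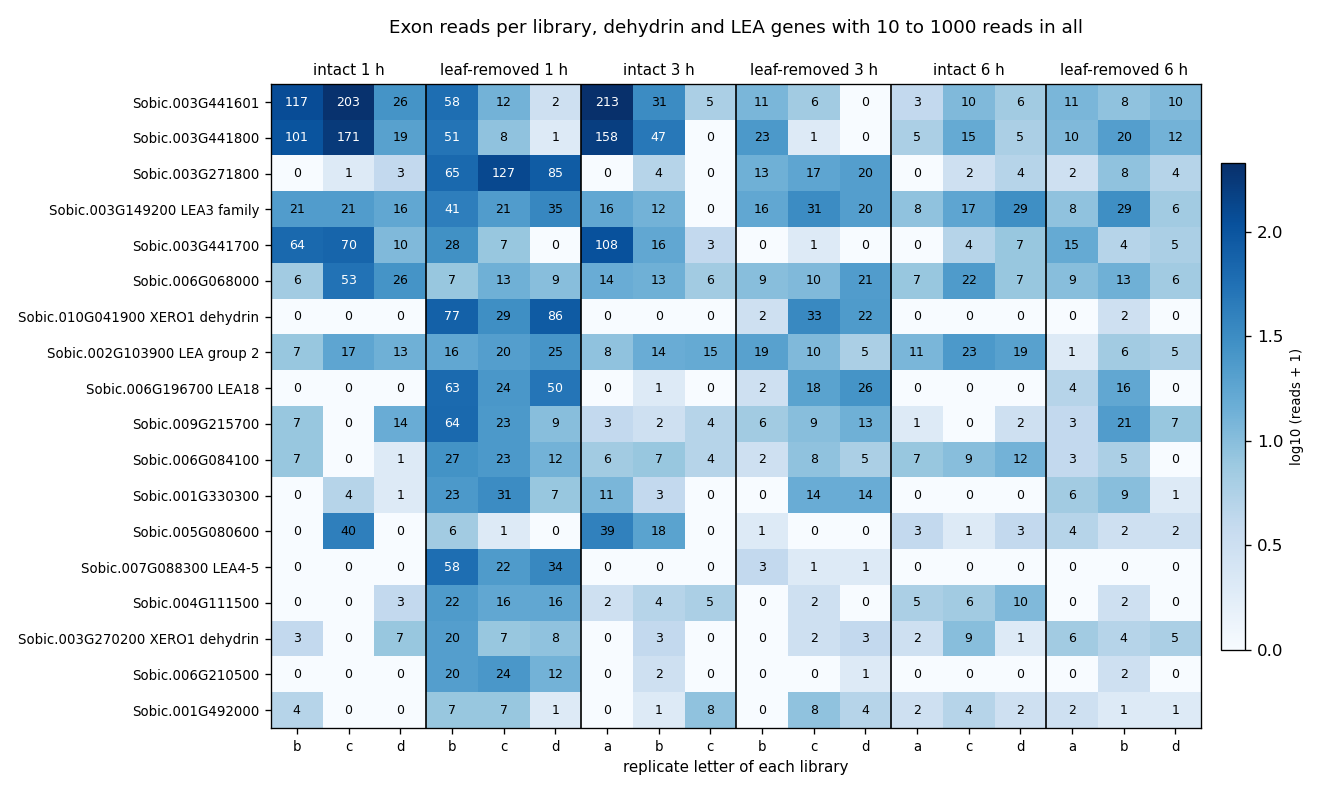
Reads per library of dehydrins and LEA proteins with few reads in all, by time and treatment, with the number of reads of each library in its cell. Sobic.010G041900 has 77, 29 and 86 reads in the leaf-removed libraries at 1 h against 0 in each intact library. Other genes shown have most of their reads in intact libraries, such as Sobic.003G441601 with 614 reads there against 118 in leaf-removed libraries.

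The LEA3-family genes, a family that in Arabidopsis includes the senescence-associated gene SAG21, were not called higher at any time by the edgeR fit of all 18 libraries or by DESeq2. Sobic.003G117000, matched to AT3G53770, had the highest level per length of the 34 in intact buds. It was at 379.7, 66.8 and 409 CPM in intact and 288, 272 and 132 CPM in leaf-removed buds at 1 h. The corresponding values were 451, 441 and 288 CPM and 69.3, 239 and 320.1 CPM at 3 h. At 6 h it was at 671, 659 and 315 CPM in intact and 121, 161 and 57.2 CPM in leaf-removed buds. Only the groups at 6 h did not overlap, with the leaf-removed libraries below. The change was -0.31 ± 0.60 (adjusted p = 0.7) at 1 h, -0.91 ± 0.60 (adjusted p = 0.27) at 3 h and -2.27 ± 0.62 (adjusted p = 0.01) at 6 h. The 5 libraries that deviate alike held its lowest value in each of their groups. Without them the changes were -0.50 (adjusted p = 0.042), -0.49 (adjusted p = 0.034) and -2.23 (adjusted p = 1.4e-06), and with the intron share of each library as a covariate they were -1.25 (adjusted p = 4.3e-05), -1.69 (adjusted p = 1.1e-06) and -2.20 (adjusted p = 4.3e-08). Per length it stood at 591 ± 213 RPKM in intact and 107 ± 46.9 RPKM in leaf-removed buds at 6 h, ranks 96 and 853. The second LEA3-family gene, Sobic.003G149200, had 21, 21 and 16 reads in intact and 41, 21 and 35 reads in leaf-removed buds at 1 h. Its changes of 1.17 ± 0.71 (adjusted p = 0.19), 1.25 ± 0.74 (adjusted p = 0.22) and -0.52 ± 0.73 (adjusted p = 0.61) passed no test, other than an adjusted p of 0.041 with the 6 libraries of 1 h alone.

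Both genes matched to AT3G62580, titled LEA family, were moderately abundant and were higher at 1 h. Sobic.008G127500 was at 44.7, 18.5 and 35.6 CPM in intact and 67.2, 83.0 and 57.7 CPM in leaf-removed buds, which did not overlap, with a change of 1.07 ± 0.33 (adjusted p = 0.014). That call was lost when replicate c of either group at 1 h was left out (adjusted p = 0.055 to 0.08). Sobic.005G211200 was at 24.2, 12.6 and 21.9 CPM and 44.2, 49.4 and 35.1 CPM, also without overlap, with a change of 1.13 ± 0.24 (adjusted p = 0.0011). At 6 h the former stood at 0.10 ± 0.33 (adjusted p = 0.85). The latter lay below intact buds in all 3 libraries at 6 h, with 32.4, 30.1 and 24 CPM in intact and 21.5, 21.0 and 12.8 CPM in leaf-removed buds and a change of -0.64 ± 0.24 (adjusted p = 0.052), or -0.56 (adjusted p = 0.0018) without the 5 libraries. At 3 h the changes were 0.61 ± 0.33 (adjusted p = 0.17) and -0.20 ± 0.24 (adjusted p = 0.58). Without the 5 libraries the former was 0.87 (adjusted p = 8.2e-05).

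In all, 9 genes share the title LEA protein-related and the match AT3G19430, and 6 were tested. They supplied all 3 lower calls at 3 h. Sobic.003G441601 had 213, 31 and 5 reads in intact and 11, 6 and 0 in leaf-removed buds at 3 h, with a change of -3.91 ± 1.31 (adjusted p = 0.03) though the groups overlapped. Sobic.003G441700 had 108, 16 and 3 and 0, 1 and 0 reads, with -6.57 ± 1.83 (adjusted p = 0.011), and Sobic.005G080600 had 39, 18 and 0 and 1, 0 and 0, with -5.44 ± 1.97 (adjusted p = 0.044). In each of them replicate a of intact buds at 3 h held most of the intact reads. Without that library 0 of the 3 calls at 3 h were left, and without replicate d of leaf-removed buds at 3 h 1 was. The call of Sobic.005G080600 was lost in 13 of 26 alternatives, among them 7 libraries of 1 h and 6 h left out one at a time (adjusted p = 0.051 to 0.055) and replicate b of intact and every leaf-removed replicate at 3 h (0.071 to 0.12). The call of Sobic.003G441601 was also lost without replicate c of leaf-removed buds at 3 h (adjusted p = 0.078). Sobic.003G441800 behaved alike in the libraries, with 158, 47 and 0 and 23, 1 and 0 reads and -3.19 ± 1.44 (adjusted p = 0.1), or -6.76 (adjusted p = 0.013) without the 5 libraries. In intact buds at 1 h the same genes ranged widely, from 117, 203 and 26 reads in Sobic.003G441601 to 0, 40 and 0 in Sobic.005G080600, and none of the 4 was called at 1 h (changes of -1.78, -1.57, -1.80 and -1.92, adjusted p = 0.21, 0.3, 0.28 and 0.33) or at 6 h. Sobic.001G330300 alone was higher at 1 h, with 0, 4 and 1 and 23, 31 and 7 reads and 4.05 ± 1.32 (adjusted p = 0.02), a call lost with the intron share as a covariate (adjusted p = 0.11) and without replicate b or d of intact or replicate c of leaf-removed buds at 1 h (adjusted p = 0.07 to 0.077). Without the 5 libraries it was called at 6 h too, at 5.66 (adjusted p = 0.044). The sixth, Sobic.006G068000, had changes of -1.0 ± 0.68 (adjusted p = 0.24), 0.32 ± 0.69 (adjusted p = 0.76) and -0.51 ± 0.71 (adjusted p = 0.62).

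The effect of leaf removal on many of these genes was smaller or more negative at the later times. Between 1 h and 3 h the effect was lower for 8 of the 23 and higher for 0 (edgeR interaction contrasts, 0 at an unadjusted p under 0.05, and 0 by DESeq2), against 13.2% and 13.4% of all tested genes. Between 1 h and 6 h it was lower for 9 and higher for 0 (0 at an unadjusted p under 0.05, 0 by DESeq2), against 19.5% and 18.6%, or 38.1% in either direction. Between 3 h and 6 h it was lower for 1 and higher for 0 (2 at an unadjusted p under 0.05, 1 by DESeq2), where 3.25% of all tested genes were called and 2.35% were higher. Some genes in these counts passed the filter only through leaf-removed libraries, so their smaller later effects are no support. From 1 h to 3 h these were Sobic.004G111500, Sobic.006G084100 and Sobic.006G210500. From 1 h to 6 h they were Sobic.003G271800, Sobic.004G111500 and Sobic.006G084100. Of the 23 genes, 2 were higher at all 3 times, Sobic.001G149500 and Sobic.006G196700, where 6.69% of all tested genes were, and 6 were higher at both 1 h and 3 h, where 10.7% were. Among the 6, Sobic.003G271800, Sobic.006G196700 and Sobic.010G041900 also passed the filter only through leaf-removed libraries. In intact buds 0 of the 23 were called across the 3 times by edgeR, with 5 at an unadjusted p under 0.05 and 2 called by DESeq2, against 9.72% of all genes called by edgeR. In leaf-removed buds 13 were called across the times, against 51.0%. The 23 include the 9 genes that passed the filter only through leaf-removed libraries. Among these, Sobic.007G088300 and Sobic.010G041900 had 0 intact reads and could not be called across times in intact buds. The 2 counts are thus no support for a contrast between intact and leaf-removed buds. Of the 25 genes with at least 10 reads in all, 19 had their highest mean level in leaf-removed buds at 1 h, which held for 30.9% of the 25487 genes of that depth. Some of the 25 reached that depth only through leaf-removed libraries, such as Sobic.010G041900 and Sobic.007G088300 with 0 intact reads. For such genes the highest group could not be an intact one, so they lend the count no support.

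The LEA hydroxyproline-rich glycoproteins were called in both directions. At 1 h, 9 of the 24 tested were higher and 2 lower, at 3 h 1 and 2, and at 6 h 0 and 3, with the shares over all tested genes as given above. For the edgeR count of 0 higher at 6 h, 3 had an unadjusted p under 0.05 and DESeq2 called 2. The median changes were 0.71, 0.06 and -0.49. Of the 24, 4 passed the filter only through leaf-removed libraries, and 2 of these 4 were among the 9 higher at 1 h. Those genes lend the counts and medians no support. Without replicate c of intact buds or replicate b of leaf-removed buds at 1 h, 5 were higher at 1 h. At 3 h, leaving out the 5 deviating libraries gave 6 higher, those added being Sobic.001G209800, Sobic.005G015700, Sobic.007G220200, Sobic.008G043500 and Sobic.009G248000 with changes of 0.99 to 1.51. At 6 h 2 were then higher, Sobic.006G274400 at 0.58 (adjusted p = 0.0093) and Sobic.007G220200 at 1.12 (adjusted p = 0.0095), and 6 were lower, those added being Sobic.001G429000, Sobic.007G169000 and Sobic.009G073300 with changes of -1.18 to -0.96. At 1 h Sobic.009G073300 was then called at 0.97 (adjusted p = 0.014), and the call of Sobic.001G128100 was lost at 0.45 (adjusted p = 0.066). The 47 genes took 0.00712% to 0.0201% of exon reads per library, below the lowest share of the 34 dehydrins and LEA proteins, 0.0264%.

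Among the glycoproteins that were higher at 1 h, Sobic.006G274400, matched to AT3G44220, had the smallest p. It was at 7.53, 6.47 and 7.96 CPM in intact and 24.5, 30.2 and 25.5 CPM in leaf-removed buds at 1 h, groups that did not overlap. Its change was 1.87 ± 0.20 (adjusted p = 1.7e-06) at 1 h, 0.99 ± 0.20 (adjusted p = 0.0013) at 3 h and 0.48 ± 0.20 (adjusted p = 0.073) at 6 h. Sobic.005G015700, matched to AT3G05975, was at 2.69, 1.29 and 2.88 CPM and 16.2, 16.3 and 7.27 CPM at 1 h, a change of 2.54 ± 0.49 (adjusted p = 0.00048). Sobic.009G248000, whose identifier follows that of the LEA gene Sobic.009G247900, was at 0.224, 0.275 and 0.212 CPM and 1.45, 1.45 and 0.664 CPM, with 2.30 ± 0.68 (adjusted p = 0.011). That call was lost with the intron share as a covariate (adjusted p = 0.058). In both genes the groups were apart at 1 h.

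Sobic.001G022400, matched to AT2G35460, was higher at 1 h and lower at 6 h. It was at 5.61, 2.23 and 6.75 CPM in intact and 21.3, 18.7 and 14.5 CPM in leaf-removed buds at 1 h. The corresponding values were 8.98, 10.2 and 8.28 CPM and 3.38, 4.06 and 1.05 CPM at 6 h, with no overlap at either time. Its change was 1.90 ± 0.46 (adjusted p = 0.0026) at 1 h and -1.67 ± 0.46 (adjusted p = 0.011) at 6 h. Sobic.001G128100, matched to AT4G13270, did likewise by less, with 0.52 ± 0.17 (adjusted p = 0.018) at 1 h and -0.55 ± 0.17 (adjusted p = 0.021) at 6 h. Its 1 h call was lost in 11 alternatives, among them each intact library of 1 h left out (adjusted p = 0.061 to 0.076), and its 6 h call without replicate c or d of intact or replicate a or b of leaf-removed buds at 6 h (adjusted p = 0.057 to 0.11). With the LEA gene Sobic.004G111500, 3 tested genes were higher at 1 h and lower at 6 h, a pattern of 2.91% of all tested genes. The other 4 glycoproteins higher at 1 h had changes of 1.16 to 2.15, and each of these calls was lost without at least 1 library of 1 h. These were replicate b of leaf-removed buds for Sobic.002G325200 (adjusted p = 0.072), replicate c of either group for Sobic.001G209800 (0.058 to 0.06), replicates c and d of intact and b and c of leaf-removed buds for Sobic.008G043500 (0.054 to 0.095), and any intact replicate and replicates b and c of leaf-removed buds for Sobic.007G220200 (0.051 to 0.17). With the intron share as a covariate the calls of Sobic.001G209800, Sobic.007G220200 and Sobic.008G043500 were lost, the last with a change of 0.92 (adjusted p = 0.09). The call of Sobic.007G220200 was lost in 11 of 28 alternatives, among them 3 libraries of later times left out.

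A pair of glycoproteins matched to the same Arabidopsis gene as Sobic.006G274400, AT3G44220, went the other way. Sobic.004G168700 was at 30.7, 22.1 and 23.4 CPM in intact and 8.76, 5.98 and 4.76 CPM in leaf-removed buds at 1 h. The corresponding values were 25.7, 29.3 and 28.7 CPM and 9.05, 14.1 and 11.9 CPM at 3 h. The leaf-removed libraries lay below at both times. Its change was -1.96 ± 0.28 (adjusted p = 3e-05) at 1 h, -1.26 ± 0.27 (adjusted p = 0.0022) at 3 h and -0.76 ± 0.27 (adjusted p = 0.039) at 6 h, the last with overlapping groups and lost without replicate a or c of intact or replicate b or d of leaf-removed buds at 6 h (adjusted p = 0.07 to 0.23). Lower calls at all 3 times were found for 4.01% of all tested genes. Sobic.007G001900 was at 2.72, 6.20 and 2.48 CPM and 0.314, 0.579 and 0.627 CPM at 1 h, again below. Its change was -2.90 ± 0.45 (adjusted p = 5.7e-05) at 1 h, -1.30 ± 0.41 (adjusted p = 0.022) at 3 h and -0.43 ± 0.40 (adjusted p = 0.43) at 6 h. The 3 h call was lost without replicate a of intact or replicate c or d of leaf-removed buds at 3 h (adjusted p = 0.065 to 0.13). For both, the effect was less negative at 6 h than at 1 h, by 1.20 ± 0.39 (adjusted p = 0.022) and 2.47 ± 0.59 (adjusted p = 0.0036) on the log2 scale.

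**Figure D5:**
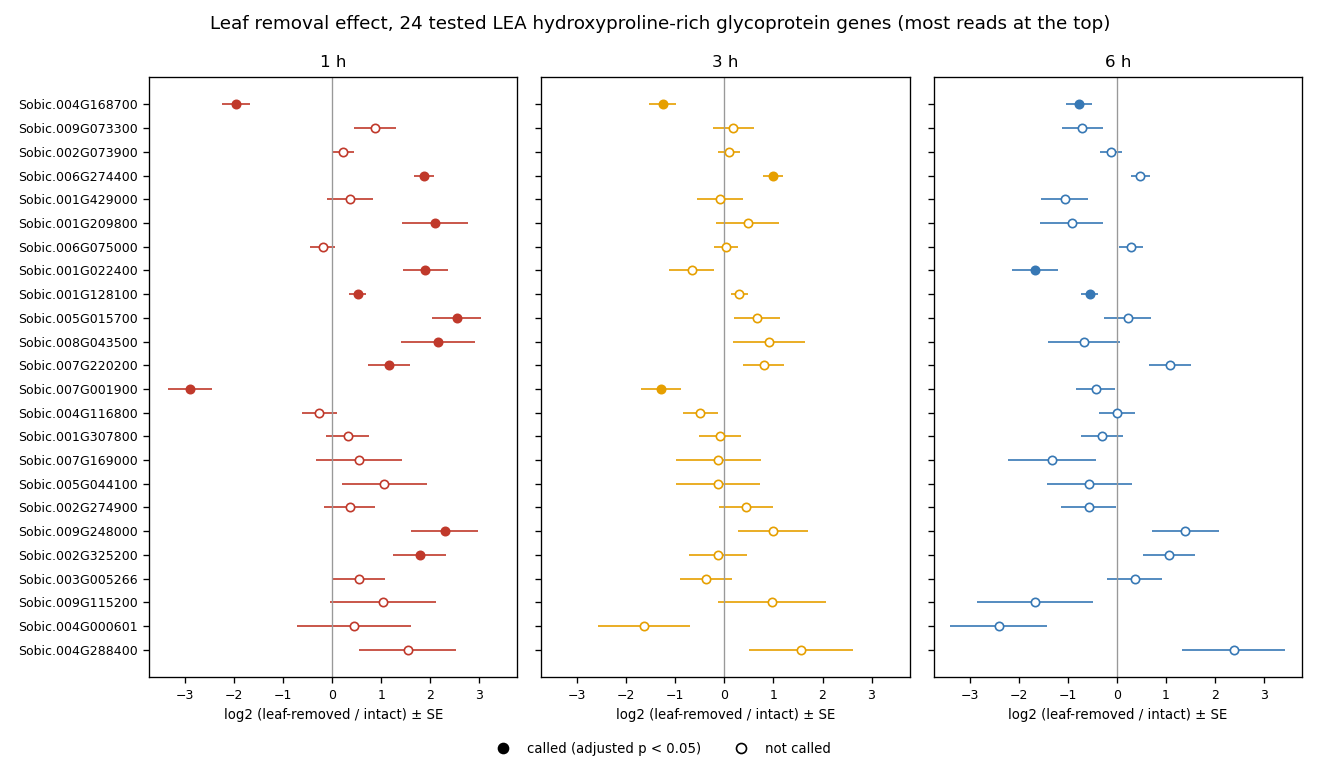
Log2 change of leaf-removed over intact buds at 1, 3 and 6 h for the 24 tested LEA hydroxyproline-rich glycoproteins, with bars of 1 standard error and filled points for called values. Sobic.006G274400 lies right of 0 at all times, and Sobic.004G168700 and Sobic.007G001900 lie left of 0.

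Other genes of dehydration and seed maturation, found by words in their titles, were counted beside them. Of 52 tested, 36 were higher at 1 h and 3 were lower, against 24.8% and 24.1% of all tested genes, and the median change was 1.84. At 3 h the counts were 15 higher to 3 lower, and at 6 h 12 to 9, against 17.8% and 16.2%, and 18% and 15.9%, of all tested genes. The higher genes of 1 h included a caleosin of oil bodies, Sobic.010G105000, at 8.61 ± 0.43 (adjusted p = 5.5e-10), and the early dehydration genes ERD4 (Sobic.002G034500; 3.07 ± 0.20, adjusted p = 7.4e-09) and ERD7 (Sobic.001G440200; 3.04 ± 0.22, adjusted p = 2.9e-08). Lower were a gene of the early dehydration (ERD) family, Sobic.009G145000, at -1.93 ± 0.51 (adjusted p = 0.0052), and the HVA22 genes Sobic.001G435700 and Sobic.005G177900, at -0.46 ± 0.09 (adjusted p = 0.00084) and -0.69 ± 0.18 (adjusted p = 0.0053).

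Of 33 tested genes of abscisic acid perception, 18 were higher and 3 lower at 1 h (against 24.8% and 24.1%), and 6 and 13 at 6 h (against 18% and 15.9%). The receptors matched to PYL6, Sobic.001G400700 and Sobic.001G401200, were at 7.98 ± 0.58 (adjusted p = 2.5e-08) and 6.49 ± 0.49 (adjusted p = 3.9e-08). The phosphatase genes matched to HAB1, which in Arabidopsis represses the signal, were Sobic.009G213000 at 2.90 ± 0.17 (adjusted p = 2.1e-09) and Sobic.003G198200 at 1.59 ± 0.10 (adjusted p = 6.2e-09). All 3 lower genes were SnRK2 kinases: Sobic.009G149900 (SnRK2.4) at -2.66 ± 0.28 (adjusted p = 1.5e-06), and the OST1-matched Sobic.001G168400 and Sobic.008G147000 at -0.90 ± 0.10 (adjusted p = 1.4e-06) and -0.60 ± 0.15 (adjusted p = 0.0027). Of 32 transcription regulators, with the same shares over all tested genes, 16 were higher and 7 lower at 1 h, and 3 and 12 at 6 h. The genes matched to GBF3 and ABF2, Sobic.009G237600 and Sobic.004G309600, were at 3.60 ± 0.19 (adjusted p = 7.2e-10) and 2.78 ± 0.25 (adjusted p = 2.2e-07), and the one matched to ABI3, Sobic.007G000400, at -0.56 ± 0.17 (adjusted p = 0.012). Of 13 tested genes of abscisic acid synthesis and breakdown, 6 were higher and the other 7 were not called at 1 h, against the 24.8% and 24.1% given above. The 6 included the breakdown enzyme CYP707A4 (Sobic.002G225400; 5.39 ± 0.29, adjusted p = 9.5e-10) and the synthesis enzymes ABA1 (Sobic.006G097500; 1.74 ± 0.12, adjusted p = 1.6e-08) and NCED9 (Sobic.001G155300; 3.19 ± 0.73, adjusted p = 0.0019).

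Markers of other tissues, matched by words in titles, were checked as well. Their counts at 1 h stand against 24.8% of all tested genes higher and 24.1% lower. Summed bud and meristem markers ranged from 317 to 397 CPM over all libraries, or 191 to 281 CPM without Sobic.001G097100, a serine hydroxymethyltransferase that shares the alias STM with a meristem gene, and 4 of 13 tested were higher and 3 lower at 1 h. The leaf markers ran from 2619 to 10414 CPM, overlapping between treatments at each time, with 6 of 62 tested higher and 3 lower at 1 h. Seed and embryo markers, whose words also match lipid-transfer proteins, ran from 1875 to 3575 CPM and overlapped likewise, with 21 of 60 tested higher and 8 lower at 1 h. Of the 181 genes of that list, 94 had 0 reads in intact buds and 68 in leaf-removed buds at 1 h. Secondary wall markers summed to 460 to 493 CPM in intact and 629 to 791 CPM in leaf-removed buds at 1 h, and 14 of 27 tested were higher then and 1 lower, with 15 of the 52 genes at 0 reads in intact buds and 11 in leaf-removed buds. At 1 h, introns took a mean of 5.33% of gene reads in intact buds and 3.86% in leaf-removed ones. The groups overlapped, with 4.63%, 7.23% and 4.12% in intact and 3.80%, 3.12% and 4.65% in leaf-removed libraries. The part of these marker differences and of the intron share in the 1 h changes was not tested. With the intron share as a covariate, 14 of the 23 dehydrins and LEA proteins were higher and 1 was lower at 1 h. The main fit had 15 and 0. Both counts include genes that passed the filter only through leaf-removed libraries, so they do not settle that part. In the authors' deposited table, 7 of the 34 were higher and none (0) was lower at 1 h by an FDR-corrected p under 0.05, against 6.6% and 3.36% of all 34211 genes. The authors' deposited table has 3 higher and 0 lower at 3 h, against 3.28% and 1.94%, and 1 of each at 6 h, against 3.7% and 1.55%.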

How the data were processed

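RNA of axillary buds was measured in 18 libraries, 3 in each of 6 groups. The authors' deposited table gives, per gene and library, read counts over exons (total and unique), introns and whole genes, and RPKM values, per the file headers. It also gives, per the file headers, a signed fold change, read here as a score, and an FDR-corrected p-value per time from the authors' own test with tagwise dispersions. Other columns hold the exon length and the annotation. Per the labels, RNA was taken with Trizol, treated with DNase, cleaned on RNeasy columns and sequenced from TruSeq libraries. The aligner and its settings, the genome build and the use of strand in counting are not given in the sources used here, so reads of overlapping or antisense genes cannot be told apart.

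The quasi-likelihood F test of edgeR 4.0.16 (R 4.3.3) was run on total exon counts scaled by TMM, after its default filter on low counts. A single fit held all 6 groups and had 12 residual degrees of freedom. Contrasts were leaf-removed minus intact per time, the differences of these between times, and an F test across times within each treatment. Benjamini-Hochberg adjustment ran over all 21852 tested genes. Genes with 0 reads in a group were given a bound from 3 reads over the group, and ratios on 1 to 3 reads a 95% exact counting interval. Both cover counting error only, since no molecular identifiers were read and PCR copies count as reads. A standard error is the absolute log2 change divided by the square root of F. Nothing in the labels says that pools came from separate sowings, so p-values measure the spread between these pools.

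Genes were named by a rule: every tested dehydrin and LEA protein, untested ones with at least 10 reads, the 4 called glycoproteins of smallest p per time and direction, and at most 4 called genes per list and direction at 1 h. Members, lists and rule were chosen with earlier results of these data known, as were 2 of the alternatives, namely the intron share as a covariate and leaving out the 5 libraries. Further alternatives were DESeq2 1.42.0, library totals, no filter, a filter of 1 CPM in 9 libraries, the replicate letter as a block, each time alone and each library left out. Tests were tried on simulated data first. Figures used matplotlib 3.10.9 under Python 3.11.15.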

Additional observations from a re-analysis of the deposited data

Results flagged for a closer look

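The values here are differences in the leaf removal effect between 2 times, on the log2 scale, each past an adjusted p of 0.05 in the edgeR interaction contrast. A negative value means a smaller or more negative effect at the later time. Among the dehydrins, Sobic.001G149500 shifted by -2.87 ± 0.30 (adjusted p = 6.1e-06) from 1 to 3 h and by -3.36 ± 0.31 (adjusted p = 8.2e-07) from 1 to 6 h. Sobic.009G116700 shifted by -2.83 ± 0.79 (adjusted p = 0.014) from 1 to 3 h, -4.0 ± 0.83 (adjusted p = 0.012) from 3 to 6 h and -6.83 ± 0.87 (adjusted p = 1.7e-05) from 1 to 6 h.

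Of the LEA14-type genes, Sobic.009G247900 shifted by -3.09 ± 0.58 (adjusted p = 0.00097) from 1 to 3 h and -4.78 ± 0.60 (adjusted p = 1.5e-05) from 1 to 6 h. Sobic.001G017100 shifted by -1.76 ± 0.48 (adjusted p = 0.012) and -2.48 ± 0.48 (adjusted p = 0.00076) over the same spans, and Sobic.002G103900 by -3.39 ± 0.79 (adjusted p = 0.003) from 1 to 6 h. Of the LEA-family genes, Sobic.004G111500 shifted by -6.62 ± 1.46 (adjusted p = 0.003) and -7.77 ± 1.40 (adjusted p = 0.00042), Sobic.006G084100 by -3.45 ± 1.23 (adjusted p = 0.048) and -5.29 ± 1.25 (adjusted p = 0.0034), and Sobic.005G211200 by -1.33 ± 0.34 (adjusted p = 0.009) and -1.78 ± 0.34 (adjusted p = 0.00077). From 1 to 6 h Sobic.003G271800 shifted by -5.41 ± 1.47 (adjusted p = 0.0085). The fitted shift of Sobic.006G210500 from 1 to 3 h, -8.27 ± 2.55 (adjusted p = 0.031), rests on a group with 0 reads and is no measure of size.

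Among the glycoproteins, Sobic.001G022400 shifted by -2.57 ± 0.65 (adjusted p = 0.0075) from 1 to 3 h and -3.57 ± 0.65 (adjusted p = 0.00046) from 1 to 6 h, Sobic.005G015700 by -1.87 ± 0.67 (adjusted p = 0.049) and -2.31 ± 0.68 (adjusted p = 0.013), and Sobic.006G274400 by -0.87 ± 0.28 (adjusted p = 0.03) and -1.38 ± 0.28 (adjusted p = 0.0011). From 1 to 6 h, Sobic.001G128100 shifted by -1.07 ± 0.24 (adjusted p = 0.0024), Sobic.001G209800 by -3.01 ± 0.92 (adjusted p = 0.017), Sobic.008G043500 by -2.81 ± 1.05 (adjusted p = 0.044) and Sobic.009G073300 by -1.57 ± 0.60 (adjusted p = 0.048). The opposite sign was found for Sobic.004G168700, with 1.20 ± 0.39 (adjusted p = 0.022), and Sobic.007G001900, with 2.47 ± 0.59 (adjusted p = 0.0036). With 3 libraries a group, single libraries were not screened as outliers.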

How the results depend on the processing

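Of 46 calls on dehydrins, LEA proteins and glycoproteins, 27 passed under each of the 26 to 28 alternatives that could be fitted for them, 19 missed the threshold under at least 1 and 0 changed direction, and 32 values not called were called under at least 1. At 1 h, 15 dehydrins and LEA proteins were higher by DESeq2, by the replicate block and without the 5 libraries, and 6 of 7 tested with at least 1 CPM in 9 libraries. Lower at 1 h was 1 (Sobic.003G117000) without the 5 libraries and 1 with the intron share. At 3 h the strict filter left 3 higher and 0 lower, and lower calls were 0 under the replicate block, 0 with 3 h alone, 5 without the 5 libraries and 6 with the intron share. At 6 h higher calls were 4 by DESeq2, 1 under the strict filter, 1 under the replicate block, 5 without the 5 libraries and 1 with 6 h alone, and lower calls were 1 under the strict filter and 5 with the intron share. For glycoproteins at 3 h, higher calls were 6 without the 5 libraries, and lower calls 1 under the replicate block, 5 with the intron share and 1 with 3 h alone. At 6 h higher calls were 2 by DESeq2, 2 under the strict filter, 2 without the 5 libraries and 3 with the intron share, and lower calls 5 with library totals, 6 without the 5 libraries, 6 with the intron share and 1 with 6 h alone. Over all genes the shift from 3 to 6 h gave 710 calls, and 1354 by DESeq2, 448 under the replicate block, 3809 without the 5 libraries and 1971 with the intron share. Intact buds across times gave 2125, and 3501, 1198, 4366 and 4651 in the same order. The cause of these differences was not tested, other than that the strict filter tests fewer genes.

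Leaving out 1 library at a time, dehydrins and LEA proteins gave 13 to 16 higher and 0 to 0 lower calls at 1 h, 5 to 6 and 0 to 4 at 3 h, and 1 to 3 and 2 to 4 at 6 h. Glycoproteins gave 5 to 9 higher and 2 to 2 lower at 1 h, 1 to 1 and 1 to 2 at 3 h, and 0 to 2 and 1 to 4 at 6 h. The lowest 3 h count of lower LEA genes, 0, came without replicate a of intact buds, and 1 without replicate d of leaf-removed buds. The shift from 3 to 6 h ranged from 447 to 1073 genes, and intact buds across times from 1235 (without replicate c at 1 h) to 2703. All-gene counts ranged from 9360 to 11591 at 1 h, 5552 to 7848 at 3 h and 5865 to 8120 at 6 h. Scaled by library totals alone, all tested genes had medians of -0.25, -0.12 and -0.21 at 1, 3 and 6 h, and higher calls went from 50.8%, 52.4% and 53.1% of all calls to 36.5%, 40.6% and 33.1%. Libraries of the same replicate letter and time gave 7 pairs whose deviations from their group means correlated by -0.405 to 0.528, so the letters were not taken as pairs, and not every library correlated best with its own letter. With the letter as a block, Sobic.010G041900 and Sobic.006G196700 at 3 h had adjusted p = 0.055 and 0.065. The block also left 4 in place of 8 dehydrins and LEA proteins with a lower effect at 3 h than at 1 h, and 0 in place of 1 from 3 to 6 h. Too few reads kept the other members of both sets out of the test.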
